A study of Phaseolus coccineus with 4 samples.

Results

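Among the transcripts of the scarlet runner bean (Phaseolus coccineus) embryo, 70 genes were both abundant in the suspensor and far scarcer in the embryo proper, out of 19883 genes listed in the deposited tables. These genes were selected on their measured levels. A gene belonged to the group if its RPKM, a read number scaled to the length of the gene and the depth of the library, was at least 100 in both suspensor libraries and if its lower suspensor value was at least 8 times its higher embryo proper value. The contrast between the regions was therefore used to choose them, and every difference between the regions below is a description. The calls of a test over all genes are given once, beside their background, and nothing is read from them. The data comprise 4 libraries, 2 biological replicates of the suspensor and 2 of the embryo proper. All came from globular-stage embryos of the cultivar Hammond's Dwarf Red Flower, in seeds 1.6 to 2.5 mm long taken 6 days after hand pollination, and the groups differ only in the region that was cut by laser from paraffin sections. No label says how many embryos or plants were pooled in a library.

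The suspensor is the stalk that connects the young embryo to the mother tissue. In scarlet runner bean it is unusually large, its basal cells carry polytene chromosomes, and it is known as a source of gibberellins and as a route for nutrients to the embryo proper, which forms the plant body. The cells of the suspensor do not contribute to the later plant and are lost as the seed matures. The deposited tables identify genes by ID alone, and their annotation is not given in the sources used here. No ID was found in the gene table of the Phaseolus coccineus reference assembly, so the species of the gene models was not checked. Without a match, no gene is given a name or a role here. For the same reason, the labelled regions could not be checked against marker genes, and no gene list of a pathway was examined. Because the samples are bulk captures, fewer cells of a kind and less RNA per cell cannot be told apart.

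The depth of the libraries, recovered from the RPKM values, ranged from 32855045 to 56899297 reads, and both suspensor libraries were deeper than the embryo proper ones. All 70 genes were listed in every library. The smallest number of reads behind a value was 1257 in the suspensor libraries and 10 in the embryo proper libraries, where 9 of the genes had under 50 reads in at least 1 library. The low embryo proper values of those 9 genes carry the largest counting error.

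The genes of the group made up a large part of the suspensor's transcript signal and very little of that of the embryo proper. Together they held 35.4% of the summed RPKM in suspensor replicate 1 and 45.8% in suspensor replicate 2. In the embryo proper they held 1.11% and 0.926% in replicates 1 and 2. The means were 40.6% ± 7.36 in the suspensor and 1.02% ± 0.129 in the embryo proper (SD, n = 2). Counted as reads, which gives long genes more weight, their shares were 31.3% ± 5.35 and 0.832% ± 0.106 (SD, n = 2).

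That signal was very unevenly spread over the 70 genes. The most abundant one alone accounted for 16.1% and 28.5% of the summed RPKM of suspensor replicates 1 and 2, and the next 3 together for 8.27% and 9.85%. The 21 genes after these held 8.95% and 5.98%, and the remaining 45 held 2.00% and 1.40%. The first gene, and the next 3 together, thus took a larger share in replicate 2, and the other 66 together a larger share in replicate 1. With the most abundant gene taken out of the sums, the shares of the other 69 were close in the suspensor libraries, at 22.9% and 24.1%, and were 0.711% and 0.639% in the embryo proper.

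**Figure D1:**
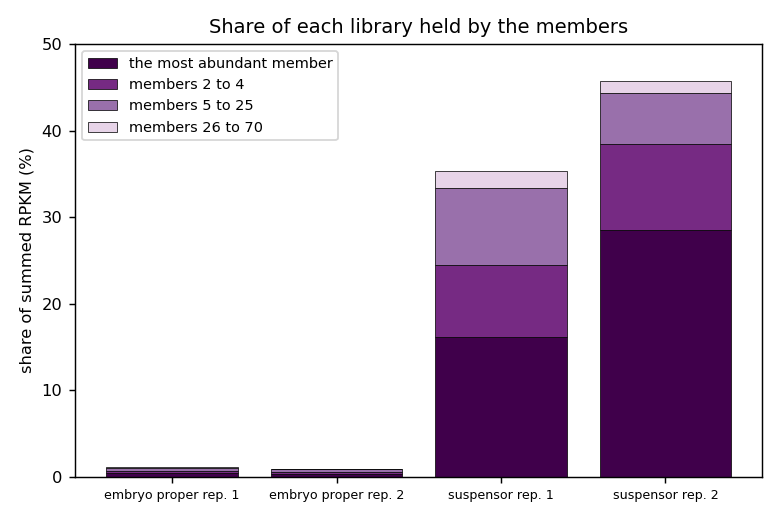
Share of the summed RPKM of each library (percent, vertical axis) held by the most abundant gene of the group and by 3 further rank classes, for each of the 4 libraries. The stacked bars reach 35.4% and 45.8% in the suspensor libraries and stay near 1% in the embryo proper libraries.

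The group spanned more than 3 orders of magnitude in the suspensor. Mean suspensor levels ran from 108 to 182021 RPKM, with a median of 377 RPKM. The level was at least 10000 RPKM for 4 genes, from 1000 to under 10000 RPKM for 21, from 300 to under 1000 RPKM for 17, and under 300 RPKM for 28. The group provided 8 of the 10 genes with the highest mean suspensor RPKM, 13 of the top 25, 21 of the top 50 and 28 of the top 100. Of the 684 genes at 100 RPKM or more in both suspensor libraries, it made up 10.2%, a lower share than among the top genes. The rule used the suspensor level, so a high level favours membership, and nothing is read from this.

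The highest transcript of the suspensor was Phvul.005G018000. It stood at 124904 and 239138 RPKM in suspensor replicates 1 and 2, and at 2809 and 2076 RPKM in embryo proper replicates 1 and 2. Its mean in the suspensor was 74.5 times that in the embryo proper. Even so, this gene ranked 28th in the embryo proper libraries by mean RPKM, at 1.34% of its suspensor level. Whether those reads came from cells of the embryo proper or from suspensor material was not tested.

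The second, Phvul.010G087500, measured 26559 and 43051 RPKM in the suspensor and 598 and 436 RPKM in the embryo proper, a ratio of means of 67.4. Like the first, it was higher in suspensor replicate 2 and in embryo proper replicate 1. Phvul.006G123500, the third, went the other way between the suspensor libraries, with 32800 and 21029 RPKM. It had 1389 and 1051 RPKM in the embryo proper, where it ranked 80th. With Phvul.005G018000, it was the only gene of the group among the 100 highest of the embryo proper.

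Phvul.005G018100 was the least even of the 4 genes above 10000 RPKM. Its suspensor values were 4632 and 18484 RPKM, a difference of 3.99 times between replicates, while its embryo proper values of 125 and 141 RPKM were close. The ratio of its means, 86.8, therefore rests mainly on suspensor replicate 2.

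Below 10000 RPKM, the members of the top 10 differed widely in how much remained in the embryo proper. Phvul.004G166100 had 9184 and 7604 RPKM in the suspensor and 822 and 932 RPKM in the embryo proper, the lowest ratio of the lower suspensor to the higher embryo proper value in the group. By its means it was 9.58 times higher. Phvul.005G183600 was 11.4 times higher by its means, with 4084 and 3482 RPKM against 377 and 288 RPKM. At the other end, Phvul.006G138900 had 5302 and 2995 RPKM in the suspensor and 41.6 and 45.3 RPKM in the embryo proper, a ratio of means of 95.4. Phvul.008G023200, Phvul.010G012300 and Phvul.009G024600 lay between these, with mean suspensor levels of 5760, 5279 and 4798 RPKM and ratios of means of 67.1, 48.5 and 76.6. High level and wide margin thus did not go strictly together.

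**Figure D2:**
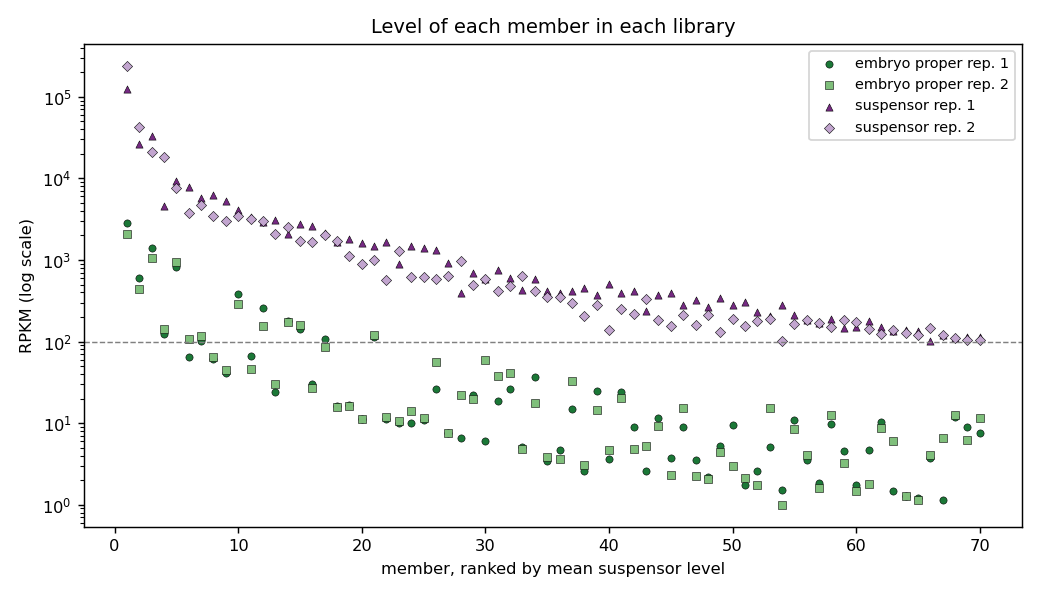
RPKM (vertical axis, log scale) of each of the 70 genes in each of the 4 libraries, with the genes ordered by mean suspensor level from left to right. The dashed line marks 100 RPKM, and 11 genes have a mean embryo proper level above it.

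The margin between the regions varied from gene to gene across the group. The ratio of the lower suspensor to the higher embryo proper value had a median of 31.5. It was from 8 to under 16 for 23 genes, from 16 to under 32 for 12, from 32 to under 64 for 16, and 64 or more for 19. On the log2(RPKM + 1) scale, the differences between the region means ran from 3.08 to 6.63 with a median of 5.45, whereas the median over all 13527 tested genes was -0.45. These values were used by the choice of the genes and support nothing beyond it. In the limma fit over all tested genes, 70 of the 70 genes were called higher in the suspensor, and 2.10% of all tested genes were called so (adjusted p under 0.05). Without embryo proper replicate 1 or 2, limma called 0 of the 70 and 0 genes in all. At an unadjusted p under 0.05, the 70 were then among 648 and 632 higher genes. Without suspensor replicates 1 and 2, it called 20 and 21 of the 70, which were all of its higher calls, and 941 and 1289 genes were higher at an unadjusted p under 0.05, the 70 among them. The choice of the genes used the same contrast, and nothing is read from these counts.

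By that ratio, Phvul.006G125400 stood first, at 103.7. Its levels were 1681 and 1701 RPKM in the suspensor and 16.2 and 15.8 RPKM in the embryo proper, so its replicates were nearly equal in both regions. The next by ratio was a far scarcer transcript, Phvul.006G147800, at 139 and 129 RPKM in the suspensor and 1.26 and 1.28 RPKM in the embryo proper. The ratio of means of both genes was 105.5. Their suspensor levels differed more than 10-fold. Both genes were picked for the highest ratios, which partly sets how alike their proportions were, and nothing is read from it.

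The 3 genes that followed by ratio were also well below the top of the abundance range. Phvul.007G019700 had 136 and 121 RPKM in the suspensor and 1.21 and 1.14 RPKM in the embryo proper. For Phvul.008G199100 the suspensor values were 264 and 214 RPKM, and the embryo proper values 2.20 and 2.06 RPKM. Phvul.011G209000 measured 415 and 355 RPKM against 3.40 and 3.82 RPKM. In all 5 genes the embryo proper replicates differed by far less than the regions did, a gap for which they were picked. The embryo proper values rested on 19 and 15 reads for Phvul.007G019700 and on 43 and 34 for Phvul.008G199100. Their order by ratio is therefore uncertain.

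The values on either side of each limit of the choice were close. Just inside the ratio of 8 lay Phvul.004G166100 at 8.16, Phvul.006G071000 at 8.32 and Phvul.009G106800 at 8.62. Just outside it were 3 genes at 7.90, 7.90 and 7.63. Just inside the level of 100 RPKM were Phvul.001G240800, Phvul.005G175000 and Phvul.006G019500, with lower suspensor values of 101, 101 and 103 RPKM. The 3 genes just outside it, which met the ratio, had lower suspensor values of 94.4, 93.8 and 93.3 RPKM. Applied without suspensor replicate 2, the same rule took 160 genes, the 70 among them, and without any other single library it took 81 to 95. Leaving out a library can only loosen this rule, so the 70 had to remain.

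**Figure D3:**
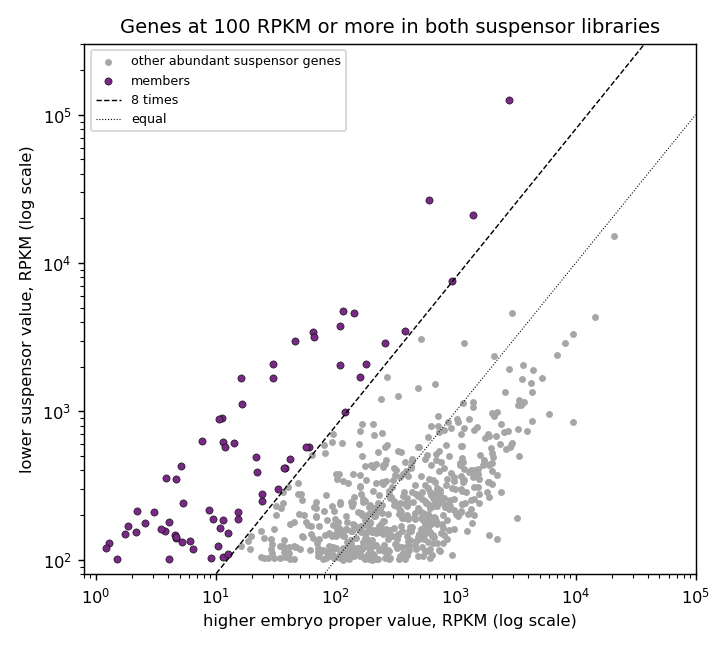
Lower of the suspensor values against the higher of the embryo proper values (RPKM, both axes on a log scale) for the 684 genes at 100 RPKM or more in both suspensor libraries, with the 70 genes of the group in purple. The dashed line marks 8 times and the dotted line equal values, and the points run across the dashed line without a gap.

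The embryo proper levels of the group also spanned more than 3 orders of magnitude. Means ran from 1.17 to 2442 RPKM with a median of 11.3 RPKM, and 11 genes reached 100 RPKM. A further 29 lay from 10 to under 100 RPKM, 20 from 3 to under 10 RPKM, and 10 under 3 RPKM. Across the 70 genes, log2 levels in both regions went together, with Pearson's r from 0.845 to 0.872 over the 4 pairs of libraries. The choice of the genes sets an upper limit to one level from the other, and the genes are not independent replicates, so these values only describe the group. Within a region, r over the same genes was 0.948 for the embryo proper replicates and 0.958 for the suspensor replicates.

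Expressed as a percentage of the suspensor level, the embryo proper levels were crowded at their low end. The lowest value was 0.661%, the median 2.05% and the highest 11.1%. A block of 25 genes lay under 1.2%, with a median of 0.999%, although their mean suspensor levels ran from 128 to 11558 RPKM. Their embryo proper means ran from 1.17 to 133 RPKM. Among the other 614 genes at 100 RPKM or more in both suspensor libraries, the lowest percentage was 5.28% and the median 107%. The choice of the genes kept low percentages out of that set. The limit of 1.2% was chosen after the values were seen.

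In that block of 25, the embryo proper replicates were also close to each other. The median size of their log2 difference was 0.17, none of the 25 differed more than 2-fold, and 17 differed less than 1.2-fold. Among the 8 genes from 1.2% to under 2%, the median size was 0.45, and 1 differed more than 2-fold. It was 0.48 for the 17 genes from 2% to under 5%, of which 6 differed more than 2-fold, and 0.47 for the 20 genes above that, of which 4 did. All 11 genes with embryo proper replicates more than 2-fold apart thus stood above 1.2%. The percentage is computed from the same embryo proper values, so a raised replicate moves a gene out of the block. The closeness of the replicates within the block is therefore partly set by its limit, and nothing is read from it. For the block and the other genes alike, whether embryo proper reads came from cells of that region or from suspensor material was not tested.

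Examples from the block show how similar the percentages were at very different levels. Phvul.005G017900 had 1825 and 1129 RPKM in the suspensor and 16.5 and 16.2 RPKM in the embryo proper, or 1.11%. Phvul.011G186400 stood at 1650 and 572 RPKM against 11.3 and 11.9 RPKM, or 1.05%. The lowest percentage, 0.661%, belonged to Phvul.005G175000, with 278 and 101 RPKM in the suspensor. Its embryo proper values, 1.51 and 0.995 RPKM, rested on 18 and 10 reads.

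Embryo proper replicates were more than 2-fold apart for 11 of the 70 genes (15.7%). The share was 13.5% among the other 614 abundant genes and 45.1% among tested genes listed in all 4 libraries. Of the 11 genes, 8 were higher in replicate 2 and 3 in replicate 1. The 3 largest of these differences were toward replicate 2. Phvul.004G048600 had 6.12 and 59.3 RPKM there, although its suspensor values, 577 and 590 RPKM, were nearly equal. Phvul.011G185700 had 1.14 and 6.49 RPKM in the embryo proper and 120 and 119 RPKM in the suspensor. For Phvul.008G065400 the embryo proper values were 1.47 and 6.09 RPKM, and the suspensor values 134 and 138 RPKM. In these 3 genes, the size of the enrichment depended on which embryo proper library was taken, while the suspensor level did not. Their values in embryo proper replicate 1 rested on only 46, 10 and 26 reads, in the order given. Over the whole group neither library was favoured, with 34 of 70 genes higher in embryo proper replicate 1 and a median log2 difference of 0.02 (replicate 2 over replicate 1).

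**Figure D4:**
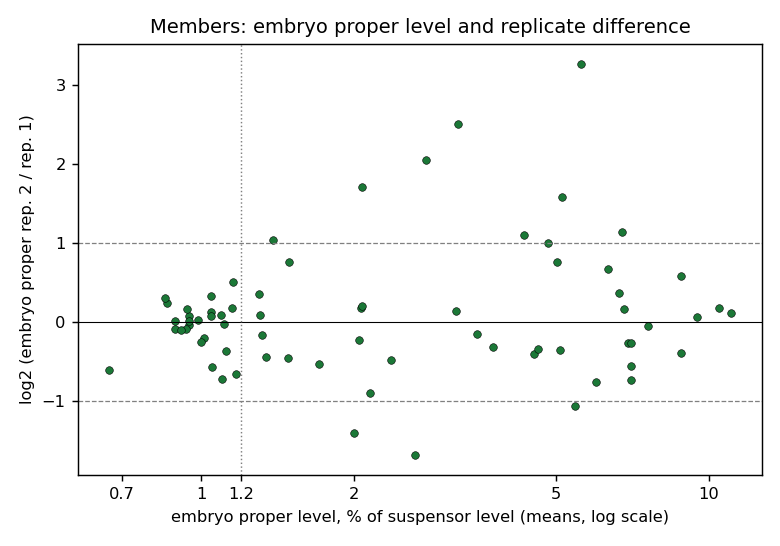
Log2 ratio of embryo proper replicate 2 to replicate 1 (vertical axis) against the mean embryo proper level as a percentage of the mean suspensor level (horizontal axis, log scale) for the 70 genes. To the left of the dotted line at 1.2%, the 25 points lie within the dashed lines at a 2-fold difference, and all 11 points beyond those lines lie to the right of it. Both axes use the same embryo proper values, so a raised replicate also moves a point to the right.

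The same rule with the regions exchanged found 41 genes of the embryo proper, which serve as a comparison. Their highest mean level was 4597 RPKM, far under that of the suspensor group. They held 3.65% and 2.72% of the summed RPKM of embryo proper replicates 1 and 2, and 0.0650% and 0.0613% of that of the suspensor replicates. Their level in the opposite region was as low as 0.223% of the level in their own, with a median of 0.672%, and 26 of the 41 lay under 1.2%. The difference between these sets was not tested, since both were chosen by level.

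The suspensor replicates differed in a direction that most of the group shared. Of the 70 genes, 55 (78.6%) were higher in suspensor replicate 1, and the median log2 difference was -0.33 (replicate 2 over replicate 1). Among the other 614 abundant genes of the suspensor, 347 (56.5%) were higher in replicate 1, with a median of -0.07. The replicates were more than 2-fold apart for 13 of the 70 (18.6%) and for 46 of the 614 (7.49%). Of the tested genes listed in all 4 libraries, 53.9% were higher in replicate 1, with a median of -0.15, and 56.1% were more than 2-fold apart. This comparison is between sets of genes measured in the same libraries and carries no test. RPKM is relative to the whole library, of which the most abundant gene took 28.5% of the summed RPKM in replicate 2. With each library rescaled to the same sum without that gene, 48 of the 70 and 283 of the 614 were higher in replicate 1, and the medians were -0.22 and 0.04. With a median ratio rescaling the counts were 43 and 239, and the medians -0.15 and 0.11, so the excess was smaller in the group and turned in the other genes.

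Phvul.007G007500 had the largest excess in suspensor replicate 1, with 500 and 140 RPKM in the 2 replicates. Phvul.011G186400 and Phvul.005G175000 came next, at 2.89 and 2.74 times more in replicate 1. In the other direction, Phvul.005G018100 led with 3.99 times more in replicate 2. Phvul.008G196700 was next, at 393 and 979 RPKM, followed by Phvul.005G018000. The 15 genes higher in replicate 2 included 3 of the 10 most abundant, namely Phvul.005G018000, Phvul.010G087500 and Phvul.005G018100. The 3 genes with the largest excess in replicate 1 ranked 22nd, 40th and 54th by abundance in the group, and the 3 with the largest excess in replicate 2 ranked 1st, 4th and 28th.

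**Figure D5:**
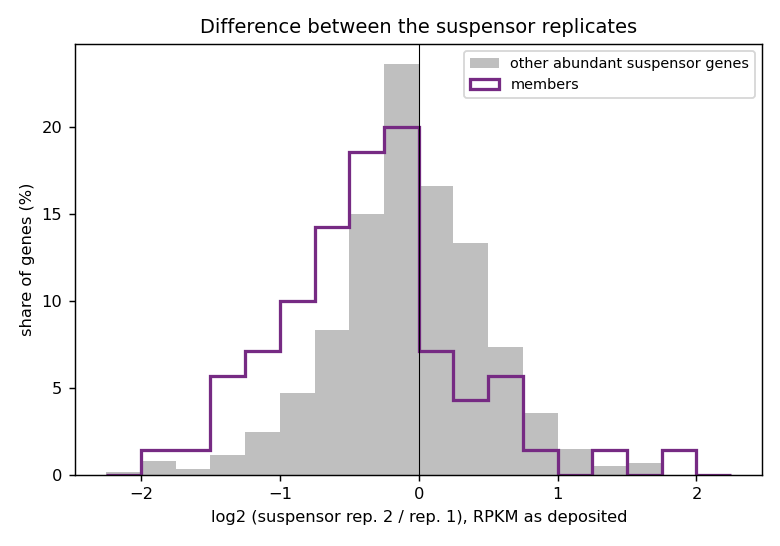
Share of genes (percent, vertical axis) by log2 ratio of suspensor replicate 2 to replicate 1 (horizontal axis) for the 70 genes (purple outline) and the other 614 genes at 100 RPKM or more in both suspensor libraries (grey bars). The purple outline lies further to the left, with medians of -0.33 and -0.07 as deposited, and the latter turns to 0.11 with a median ratio rescaling.

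Gene length was not used by the rule, although RPKM is divided by it. The median recovered length of the group was 1076.5 bases, with quartiles at 614 and 1621 bases. The other 614 abundant genes had a nearly equal median of 1080 bases, and all tested genes one of 1628 bases. Very short genes were more frequent in the group. Under 500 bases there were 13 of the 70 genes (18.6%), against 6.51% of the other abundant genes and 4.09% of all tested genes. These are the lengths by which the authors divided, of gene models whose annotation is not given.

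The short genes overlapped with the variable ones. Of the 13 genes under 500 bases, 6 differed more than 2-fold between the suspensor replicates, and 5 of these were higher in replicate 1. Of the 57 longer genes, 7 did. Among the other abundant genes, 2 of the 40 short ones and 44 of the 574 longer ones differed that much. The shortest gene of the group was Phvul.008G196700, at 135 bases, and the longest of the group measured 4365 bases. Over all 70 genes, Spearman's rho between length and the signed log2 difference of the suspensor replicates (replicate 2 over replicate 1) was 0.16. Because the sign was kept, this value does not describe how the size of the difference went with length.

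Some genes of the group carried successive ID numbers, that is, numbers 100 apart with the same start. This held for 4 pairs made of 7 genes. Among the 13527 tested genes there were 7647 such pairs. A pair needs both of its genes in the set, so a small set is bound to hold fewer pairs per gene. The counts are therefore not alike, and they were not compared by a test. The largest run was Phvul.005G017900, Phvul.005G018000 and Phvul.005G018100. Their mean suspensor levels were 1477, 182021 and 11558 RPKM, and their ratios of means 90.2, 74.5 and 86.8. These ratios of means were within a narrow range while the levels differed more than 100-fold. The ratios of the lower suspensor to the higher embryo proper value were less alike, at 68.3, 44.5 and 32.8. The suspensor replicates did not move together in the run, with log2 differences (replicate 2 over replicate 1) of -0.69, 0.94 and 2.00. The next listed ID after the run, Phvul.005G018200, was not enriched in the suspensor, at 10.9 and 3.78 RPKM there and 7.76 and 27.7 RPKM in the embryo proper.

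The remaining pairs were closer in level, and their suspensor replicates differed in the same direction. Phvul.009G024600 and Phvul.009G024700 had mean suspensor levels of 4798 and 2150 RPKM, ratios of means of 76.6 and 75.8, and log2 differences between the suspensor replicates of -0.85 and -0.65. Phvul.008G035700 and Phvul.008G035800 were near the lower limit, with means of 108 and 197 RPKM ratios of means of 11.3 and 19.4, and log2 differences of -0.12 and -0.14. The other listed IDs up to 2 numbers away from these pairs were low in the suspensor, with values from 0 to 14.1 RPKM. Whether genes of a pair are near-identical copies that share reads was not tested, and the sources used here do not say how such reads were treated, so each single level is uncertain.

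Grouped by the number at the start of the ID, the genes were spread over all 11 of the numbered series. The most, 11 genes, had IDs starting with Phvul.008, and the fewest, 3 each, with Phvul.003 or Phvul.010. Relative to the number of tested genes, the share was highest for Phvul.004 (8 of 749, 1.07%) and Phvul.005 (9 of 870, 1.03%), and lowest for Phvul.003 (3 of 1585, 0.189%). By level the picture was different. The 9 genes of Phvul.005 held 24.9% of the summed mean RPKM of the suspensor, mostly through Phvul.005G018000. The 3 genes of Phvul.010 held 5.0%, and the 11 of Phvul.008 held 1.33%.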

How the data were processed

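RNA from laser-captured regions was sequenced in 4 libraries. Per the labels' protocols, 5 ng of total RNA was amplified as cDNA, so input was low. Each library has 1 table of RPKM, deposited by the authors, that lists values above 0, and a missing gene was set to 0. Bowtie 0.12.7 and bedtools are named in the submitters' processing notes; the sources used here do not give the build, annotation, strand or treatment of multi-mapped reads.

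Values were tested as log2(RPKM + 1) with limma 3.58.1 (R 4.3.3, eBayes with a trend, two-sided, Benjamini-Hochberg adjusted p under 0.05) over the 13527 genes that reached an RPKM of 1 in 2 or more libraries. Depth, lengths and reads were recovered from the RPKM values as whole reads (tolerance 0.02) in Python 3.11.15. This succeeded for 100% of tested genes. Both steps were tested on simulated data. Read numbers cover counting error only. Nothing says whether the biological replicates came from separate plants, so spread may be technical.

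The genes of the group, the lists and the thresholds were chosen with earlier results of these data known. Named genes are the 10 most abundant, those at the ends of the ratios and replicate differences, and successive IDs. None of 19883 IDs matched the reference table of 34063 genes, so gene lists were not used. Alternatives covered the rule, pseudocounts, filters, scalings, voom, a replicate block and leaving out each library.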

Additional observations from a re-analysis of the deposited data

How the results depend on the processing

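The number of genes meeting the rule was 70. It was 44 with a minimum of 200 RPKM, 132 with region means in place of the extreme values, 107 with a median ratio rescaling, and 81 to 160 with a library left out, with 160 without suspensor replicate 2. All 70 were among these genes, except with the higher minimum, which kept 44, a minimum ratio of 16, which kept 47, and equal sums, which kept 61. Region means or a library left out can only loosen the rule, so the 70 had to remain there. Their mean share of summed RPKM was 40.6% in the suspensor and 1.02% in the embryo proper. It was 31.3% and 0.832% of recovered reads, and 23.5% and 0.675% without the most abundant gene. The median log2 difference of 5.45 became 4.50 with a pseudocount of 5 and 5.94 with a median ratio rescaling. No named gene reversed in 300 alternative values. The ratio of at least 8 in the rule fixed this outcome for pseudocounts and libraries left out, and nothing is read from it. Scaling also moved the median over all tested genes, from -0.45 to values between -0.61 and -0.01.

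Over all tested genes, limma called 284 higher and 638 lower (69.2% of calls lower). The calls were 658 and 1524 with a replicate block, although the deviations of same-numbered libraries did not go together (r = -0.03) and no label pairs them. They were 449 and 1319 with voom, 11 and 10 without a filter, and 526 and 1337 at a pseudocount of 0.1 against 182 and 280 at 5. Lower calls fell to 225 (42.5%) with a median ratio rescaling and 400 (51.3%) with quantile normalization. Leaving out a library gave 0 to 21 higher and 0 to 27 lower calls, fitted with 1 residual degree of freedom, where the lone library is assumed to vary like the other region. Of the 70 genes, 11 were called without a filter, which tests more genes, 0 to 21 with a library left out, 68 with voom, and 70 in the other fits. At an unadjusted p under 0.05, these fits found 632 to 1642 genes higher, and 1107 with the settings of the report, the 70 among them in each. The median log2 difference between suspensor replicates, -0.33, was -0.45 with equal sums, -0.15 with a median ratio rescaling, -0.23 with quantile normalization and -0.22 with equal sums without the most abundant gene, a setting added after the data were seen. The cause of the changes between these settings was not tested.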
